A study of Mus musculus with 47 samples.

Results

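The members described here are the genes of the Wnt pathway, taken as a fixed list of 48 symbols for ligands, receptors, R-spondin axis genes, secreted inhibitors, cytoplasmic components and nuclear effectors. Of these, 44 have a row in the deposited expression table of 17078 genes, located by Ensembl identifier. The list was chosen with earlier results of these data known, so counts of members called do not come from a blind choice. *Wnt2*, *Wnt7a*, *Wnt10b* and *Notum* are not analysed here. The 44 comprise 9 genes for ligands and their acylation (8 Wnt genes and *Porcn*), 10 for receptors and co-receptors, 7 for R-spondins with their receptors and the ubiquitin ligases they act on, 7 for secreted inhibitors and their partner *Kremen1*, 7 for cytoplasmic components and 4 for the TCF/LEF transcription factors.

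RNA-sequencing was performed on luminal (Lin-CD24+CD29lo) and basal (Lin-CD24+CD29hi) epithelial cells sorted from the mammary glands of FVB/N mice, with glands of 4 mice pooled for each sort. For the lineage depletion the paper lists antibodies against the products of *Pecam1*, *Ptprc*, *Itgam* and *Pdgfra*, the last as human. These genes belong to the endothelial, immune and fibroblast marker lists used below. The 8 time points were never-pregnant mice of 10 weeks (W10) and 4 months (M4), day 3.5 (P3.5) and day 14.5 (P14.5) of pregnancy, day 3 (L3) and day 10 (L10) of lactation, and 2 days (Id2) and 4 weeks (Iw4) after weaning on day 10 of lactation. Each combination of cell type and time point held 3 libraries, except P14.5 and L10 basal with 2 each, which gave 24 luminal and 22 basal libraries. The labels name no transgene or treatment, and mating of the other mice took place at an age of 8 weeks. The libraries held 4398806 to 20023054 reads on genes (median 8518616), so that the smallest level taken as measurable, 3 reads, was worth 0.17 to 1.05 CPM, the deposited read count scaled to the size of each library. In the 22 sorts with both libraries, luminal and basal cells shared sequencing lane and RNA amplification batch. W10 shared a batch with Id2, P3.5 with P14.5 and L3 with L10, while M4 and Iw4 shared 3 batches, so other pairs of time points cannot be told apart from the batch. The labels give M4, Iw4 and L3 the same lane number and each other time point a lane of its own. The paper describes fewer samples per lane than this, so whether M4 and Iw4 shared a lane is uncertain. In the other pairs that share a batch, lane and time point cannot be told apart.

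Wnt proteins are secreted lipid-modified ligands that bind Frizzled receptors together with the co-receptors Lrp5 or Lrp6. In the canonical branch this stops the Axin and Apc complex from degrading β-catenin, which then binds TCF/LEF factors at target genes, and R-spondins strengthen the signal by drawing Znrf3 and Rnf43 away from Frizzled through the receptors Lgr4, Lgr5 and Lgr6. In the mammary gland Wnt signaling is known for its role in ductal branching, in side-branching during early pregnancy and in maintaining basal stem cells.

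The basal label was checked against its defining markers before any member was compared. In the 19 basal libraries outside Id2, *Krt5* (a basal keratin) lay between 779 and 3849 CPM and *Trp63* (the basal transcription factor p63) between 457 and 999 CPM. In the Id2 basal libraries (replicates 2, 4 and 6) *Krt5* was at 4.68, 156 and 6.95 CPM and *Trp63* at 9.99, 26.6 and 3.39 CPM, so these defining basal markers were nearly lost and went against the label. The summed level of the 11 basal markers was 1493, 18698 and 1197 CPM there, against 21206 to 31106 CPM at W10 and 13274 CPM in the lowest of the other basal libraries, so that the sum of replicate 4 lay within their range although its *Krt5* and *Trp63* did not. These sums were led by *Acta2*, at 537, 8399 and 515 CPM. It was at 8588 to 13108 CPM in W10 basal and at 49.2 to 116 CPM in Id2 luminal libraries. In replicate 4 *Myh11* (5346 CPM), *Tagln* (732 CPM) and *Mylk* (3509 CPM) reached W10 basal levels. *Krt14*, *Krt17*, *Cnn1* (316 CPM), *Oxtr* (98.2 CPM) and *Snai2* (44.8 CPM) stayed below them. The paper reports that *Trp63*, *Krt5* and *Krt14* appeared lower here. It found *Acta2*, *Mef2c*, *Snai2* and *Lifr* above luminal cells and concludes that the population was basal. Replicate 2 carried endothelial markers at a sum of 13065 CPM, led by *Cdh5* at 4160 CPM, replicate 6 carried fibroblast markers at 76166 CPM, led by *Col1a1* at 27787 CPM, and replicate 4 carried pericyte markers at 11923 CPM, led by *Rgs5* at 6932 CPM, and fibroblast markers at 11667 CPM. At W10 the corresponding basal sums were 95 to 183 CPM (10 endothelial markers), 259 to 411 CPM (11 fibroblast markers) and 164 to 201 CPM (8 pericyte markers). The 11 luminal markers summed to 24460, 23089 and 6105 CPM in the Id2 basal libraries against 425 to 2340 CPM at W10, led by the milk protein gene *Csn2* at 20495, 19842 and 5232 CPM. The luminal keratin genes were lower there than at W10, *Krt8* at 53.2, 53.4 and 16 CPM against 57.1 to 203 CPM and *Krt19* at 133, 123 and 27 CPM against 102 to 582 CPM, with *Krt19* overlapping. The lactating basal libraries kept *Krt5* and *Trp63* but also had higher pericyte sums, 2031 to 17387 CPM at L3 and L10, and the P14.5 basal libraries had fibroblast sums of 12606 and 6405 CPM. Results that rest on Id2 basal libraries are therefore called by their label only. Differences averaged over time points and counts over time are given with and without them. Means per kilobase of exon include them, and a changed order without them is stated.

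**Figure D1:**
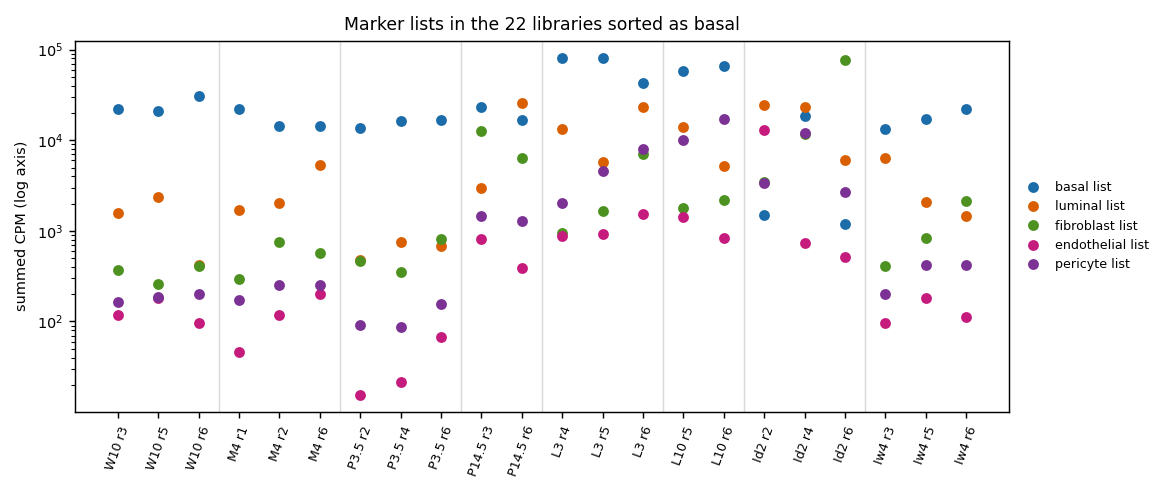
Summed level of marker lists (CPM, log axis) in each of the 22 basal libraries (x axis, by time point and replicate), with a point per library and list. The basal list sums to 1493 and 1197 CPM in Id2 replicates 2 and 6 and to 18698 CPM in replicate 4, within the range of the other time points, and in these 3 libraries fibroblast, endothelial or pericyte sums were high, while pericyte sums were also raised in L3 and L10 basal libraries that kept their basal markers.

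The first comparison asked which members distinguish the enriched basal population from luminal cells. Averaged over the 8 time points, 24 of the 44 members were higher in basal and 3 were higher in luminal cells, at a false discovery rate (FDR) under 0.01 and a fold change of at least 2 by limma. Across all 17078 genes, 13.6% were called higher in basal and 7.35% higher in luminal cells. The median log2 difference (basal less luminal, on log2 of CPM + 1) was 1.06 for the members and 0.02 for all genes. The members higher in basal cells came from each class, 5 of 9 for ligands and acylation, 6 of 10 receptors, 3 of 7 of the R-spondin axis, 5 of 7 inhibitors, 3 of 7 cytoplasmic components and 2 of 4 nuclear factors. The luminal side held *Rspo1*, *Wnt7b* and *Wnt5b*. In sorted bulk samples, fewer cells of a type and less RNA per cell cannot be told apart, and adjusted p-values describe the spread between these sorts. Without the Id2 libraries 31 members were called (13.8% of all genes were then higher in basal and 7.35% higher in luminal cells), with *Wnt5a*, *Lgr4*, *Rnf43*, *Sfrp1* and *Amer2* gained on the basal side and *Fzd4* lost, its difference going from 1.00 to 0.77.

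**Figure D2:**
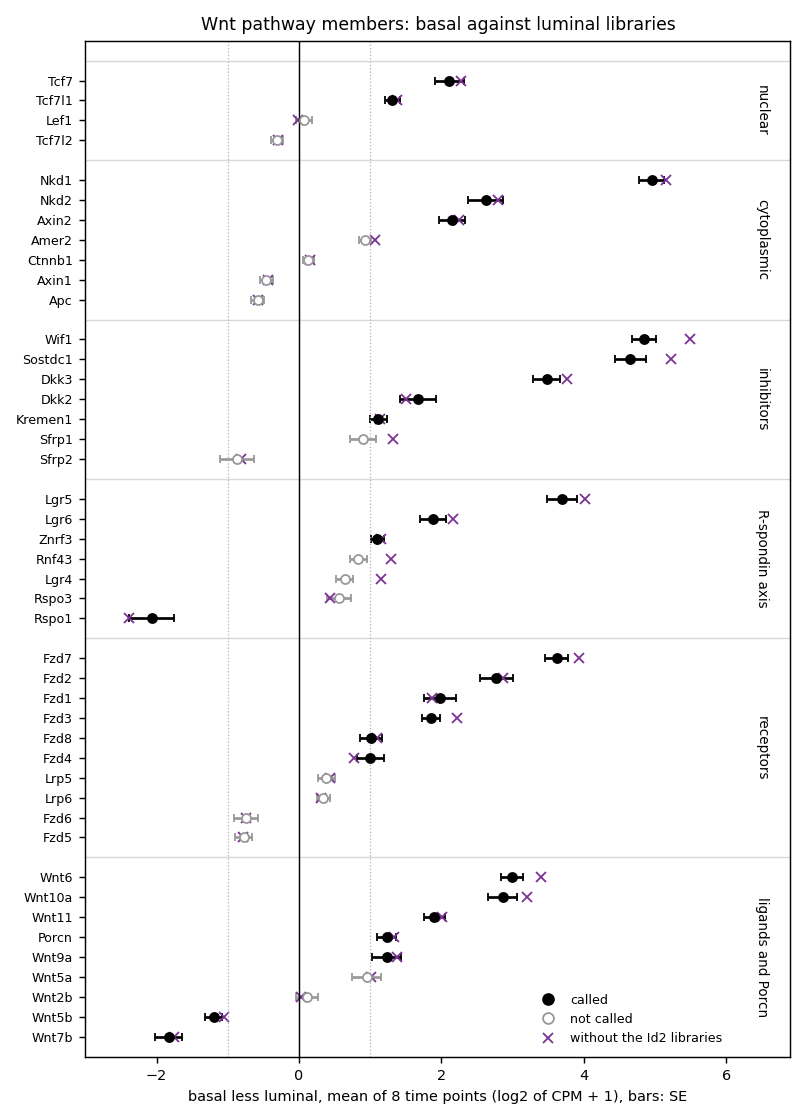
Basal less luminal difference of the 44 members over 8 time points (log2 of CPM + 1, bars are standard errors), grouped by role. Filled points were called, open points were not, and crosses give the difference without the Id2 libraries. *Nkd1*, *Wif1* and *Sostdc1* lie above 4, and *Rspo1* and *Wnt7b* lie farthest on the luminal side.

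Among the ligands, *Wnt6* and *Wnt10a* were basal. *Wnt6*, a ligand with canonical activity, lay at a median of 8.24 CPM in basal libraries (lowest 0, highest 39.8, n = 22) and was at or under the 3-read floor in 22 of 24 luminal libraries, which reached 1.18 CPM. The groups overlapped through the Id2 basal libraries, at 0, 0.485 and 0.162 CPM. The difference was 2.99 ± 0.16 (SE, limma adjusted p = 1.3e-18), and on this scale it understates the change of a gene with so few luminal reads. *Wnt10a*, another canonical ligand, had a basal median of 12.9 CPM (0 to 40.5) and a luminal median of 0.19 CPM (0 to 6.52), a difference of 2.86 ± 0.2 (adjusted p = 3.3e-15). *Wnt7b* was the reverse, with a luminal median of 16 CPM (2.1 to 45.1) and a basal median of 3.21 CPM (0.0928 to 8.51), a difference of -1.83 ± 0.19 (adjusted p = 1.5e-10). *Wnt5b*, known for β-catenin-independent signaling, ran from 8.42 to 34.7 CPM in luminal and from 1.45 to 14.7 CPM in basal libraries and differed by -1.2 ± 0.12 (adjusted p = 6.3e-11). *Wnt11*, *Wnt9a* and *Porcn*, the acyltransferase that lipidates Wnt proteins, were also called basal, at 1.90, 1.23 and 1.23. *Wnt2b* was not called (0.11 ± 0.16, adjusted p = 0.55), and the cell types differed in *Wnt5a* by 0.95 ± 0.2, under the 2-fold limit.

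Of the receptors, *Fzd7* was the most abundant in basal cells. Its basal libraries had a median of 501 CPM, with a lowest value of 16.6 at Id2 and of 273 elsewhere and a highest of 1336, and its luminal libraries lay between 14.4 and 51.2 CPM (median 32.1). Outside Id2 every basal library was above every luminal library, and the difference of 3.62 ± 0.16 (adjusted p = 8.3e-21) rose to 3.93 ± 0.11 without Id2. *Fzd2* was lower and differed less, though by more than the other receptors. Its basal libraries ran from 0.937 to 57.9 CPM (median 21.5) and its luminal libraries from 0.697 to 11.3 CPM (median 2.13). The difference was 2.77 ± 0.23 (adjusted p = 1.8e-13). *Fzd1*, *Fzd3* and *Fzd8* were called at 1.98, 1.85 and 1.01, and the calls of *Fzd4* and *Fzd8*, which stood at the 2-fold limit, were lost without any one of 20 and 12 libraries, lowest at 0.90 without Id2 basal replicate 2 and at 0.91 without L10 basal replicate 6. At Id2 the basal *Fzd1* values of 27.3, 121 and 664 CPM spanned a wide range, and the highest belonged to the library with the highest fibroblast sum. *Fzd5* (-0.78 ± 0.12) and *Fzd6* (-0.74 ± 0.17) leaned to luminal cells and the co-receptors *Lrp5* (0.38 ± 0.12) and *Lrp6* (0.34 ± 0.093) to basal cells, below 2-fold in each case. Per kilobase of exon, the mean over 8 time points in basal cells was 111 CPM per kb for *Fzd7*, 20.9 for *Fzd1*, 18.3 for *Lrp5* and 15.1 for *Lrp6*, while in luminal cells *Lrp5* (13.6), *Lrp6* (11.9) and *Fzd5* (10.1) stood above *Fzd7* (7.1). The basal means include Id2, where *Fzd1* was at its highest, 64.6 CPM per kb. With Id2 left out, the basal mean of *Fzd1* lay below those of *Lrp5* and *Lrp6*.

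The R-spondin axis was split between the cell types. *Lgr5*, an R-spondin receptor and stem cell marker, had a basal median of 48.5 CPM (0.468 to 209) and a luminal median of 1.12 CPM (0 to 4.14), a difference of 3.69 ± 0.21 (adjusted p = 1.1e-17). *Lgr6*, a related receptor, was present in both, at 0.156 to 489 CPM in basal (median 183) and 1.02 to 120 CPM in luminal libraries (median 56.9), and was higher in basal cells by 1.88 ± 0.18 (adjusted p = 8.6e-12). *Rspo1*, the secreted ligand of these receptors, was on the luminal side at -2.07 ± 0.32 (adjusted p = 8.1e-07). Its luminal libraries ran from 0 to 814 CPM (median 79.1) and its basal libraries from 0.95 to 229 CPM (median 8.28), so the ranges overlapped widely. *Rspo3* was at or under the floor in 23 of 24 luminal and 12 of 22 basal libraries and was not called. *Znrf3*, the membrane ligase that removes Frizzled, was higher in basal cells by 1.10 ± 0.094 (adjusted p = 5.9e-13), and *Rnf43*, its relative, by 0.83 ± 0.12 without reaching 2-fold.

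The secreted inhibitors gave some of the widest differences. *Wif1*, which binds Wnt ligands, had a basal median of 196 CPM (0 to 462) and a luminal median of 1.12 CPM (0 to 9.93), a difference of 4.84 ± 0.17 (adjusted p = 4.8e-24). *Sostdc1*, an antagonist of Wnt and BMP signals, had a basal median of 91.2 CPM (0 to 203) and a luminal median of 0.754 CPM (0 to 23.9), a difference of 4.65 ± 0.22 (adjusted p = 1.8e-20). For *Sostdc1* the overlap with luminal libraries came from the Id2 basal libraries, and for *Wif1* from these (0, 0.969 and 0 CPM) and from L3 replicate 6 and L10 replicate 5. *Dkk3*, a divergent Dickkopf protein, differed by 3.48 ± 0.19, *Dkk2* by 1.67 ± 0.25 and *Kremen1*, a Dickkopf receptor, by 1.11 ± 0.12. Basal *Dkk2* did not exceed 1.95 CPM at W10, M4 or P3.5. At single time points it was called basal at L3 and Id2 only. Pericyte sums were raised there, but also at P14.5 and L10. In P14.5 replicates 3 and 6 basal *Dkk2* was at 25.8 and 1.98 CPM, with pericyte sums of 1444 and 1296 CPM. In L10 replicates 5 and 6 it was at 21.1 and 1.52 CPM, with pericyte sums of 9981 and 17387 CPM. The part of other cell types was not tested. *Sfrp1* and *Sfrp2*, secreted Frizzled-related proteins, were not called over all time points (0.90 ± 0.18 and -0.87 ± 0.24) and were called on opposite sides at different time points. The basal call of *Sfrp2* was made at P14.5 alone, at 58.3 and 25.5 CPM in replicates 3 and 6, where fibroblast markers summed to 12606 and 6405 CPM, and it was lost without replicate 3 (adjusted p = 0.045).

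Among the cytoplasmic members *Nkd1*, *Nkd2* and *Axin2* were called basal. *Nkd1*, a dishevelled-binding inhibitor induced by the pathway, lay between 6.25 and 202 CPM in basal (median 58.2) and between 0.129 and 3.26 CPM in luminal libraries (median 0.953), with no overlap even at Id2 and a difference of 4.95 ± 0.18. *Nkd2*, its paralog, had a basal median of 27.5 CPM (2.19 to 97.6) and a luminal median of 2.01 CPM (0 to 34.5), a difference of 2.62 ± 0.25 (adjusted p = 1.6e-11). *Axin2*, a scaffold of the destruction complex and widely used target gene, had a basal median of 12.7 CPM (1.09 to 33.1) and a luminal median of 1.33 CPM (0 to 10.1), a difference of 2.15 ± 0.18 (adjusted p = 7.2e-13). *Ctnnb1*, which encodes β-catenin, did not separate the cell types. It lay between 262 and 557 CPM in basal (median 370) and 232 and 490 CPM in luminal libraries (median 353), a difference of 0.13 ± 0.08 (adjusted p = 0.15). *Axin1* and *Apc* were slightly higher in luminal cells, at -0.46 ± 0.087 and -0.58 ± 0.091.

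The 4 TCF/LEF genes differed in level and in cell type. *Tcf7*, which encodes Tcf1, had a basal median of 40.8 CPM (0.156 to 246) and a luminal median of 8.38 CPM (0 to 25.1), a difference of 2.11 ± 0.2 (adjusted p = 6e-12). *Tcf7l1*, which encodes the mainly repressive Tcf3, had a basal median of 96 CPM (58.6 to 226) and a luminal median of 40.7 CPM (14.6 to 92.8), a difference of 1.31 ± 0.11 (adjusted p = 6.4e-13), and the Id2 basal libraries kept it at 194, 105 and 68.8 CPM. *Tcf7l2* was abundant in both, 138 to 412 CPM in basal and 169 to 472 CPM in luminal libraries, and not called (-0.31 ± 0.091). *Lef1* was barely detected. It did not exceed 1.86 CPM in basal or 3.06 CPM in luminal libraries and was at or under the floor in 13 of 22 and 16 of 24 of them, so a difference was not detectable at this depth (0.07 ± 0.11, adjusted p = 0.63). Per kilobase of exon, the basal means over 8 time points were 29.7 CPM per kb for *Tcf7l1*, 29.2 for *Tcf7l2*, 21 for *Tcf7* and 0.0488 for *Lef1*. These means include Id2, and with Id2 left out *Tcf7l2* stood slightly above *Tcf7l1*.

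Promoter sequence was examined for the members because the TCF/LEF factors bind a short core motif. Both strands of the RefSeq promoters (GRCm38.p6, 250 bases before to 50 after the start) were searched for CTTTGAT and CTTTGTT, which cannot match at the same site. The motifs were present in 9.33% of all 32851 promoters, and in 10.5% of the 38 entries of the 28 members with an entry, a share close to that of all promoters. The 4 members with a match were *Fzd7*, *Wnt5b*, *Wnt11* and *Tcf7l2*, and a match is a description of these letters only. The 250 bases upstream of 3 genes with wide basal differences are shown to set a promoter with a match beside 2 without, *Fzd7* at chr1:59481897-59482146, *Nkd1* at chr8:88527383-88527632 and *Wif1* at chr10:121033754-121034003, each on the plus strand and written 5′ to 3′. Capitals mark AACAAAG, the reverse complement of CTTTGTT, 130 bases before the *Fzd7* start.
Fzd7: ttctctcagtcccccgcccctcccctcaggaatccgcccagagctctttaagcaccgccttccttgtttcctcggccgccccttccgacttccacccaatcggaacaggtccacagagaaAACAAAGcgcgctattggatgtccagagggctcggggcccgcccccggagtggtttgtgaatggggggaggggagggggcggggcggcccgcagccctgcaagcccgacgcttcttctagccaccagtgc
Nkd1: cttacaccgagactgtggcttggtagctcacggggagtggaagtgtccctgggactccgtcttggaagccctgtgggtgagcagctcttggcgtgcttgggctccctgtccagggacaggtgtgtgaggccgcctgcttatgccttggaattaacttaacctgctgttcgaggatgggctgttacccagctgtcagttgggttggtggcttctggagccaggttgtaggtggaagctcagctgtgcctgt
Wif1: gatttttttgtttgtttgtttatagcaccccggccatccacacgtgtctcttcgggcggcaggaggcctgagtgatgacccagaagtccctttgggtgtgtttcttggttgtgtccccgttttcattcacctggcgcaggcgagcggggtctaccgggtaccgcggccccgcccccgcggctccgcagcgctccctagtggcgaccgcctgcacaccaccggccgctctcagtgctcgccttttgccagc

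At single time points most of the members called were higher in basal cells, except at Id2. At W10, 23 members were higher in basal and 1 in luminal cells (14.2% of all genes were called in either direction). The split was 24 and 2 at M4 (12.4% of all genes), 20 and 3 at P3.5 (11.9%), 18 and 2 at P14.5 (12.9%) and 19 and 3 at L3 (25.8%). At L10, 10 were higher in basal and 5 in luminal cells (24.7% of all genes), at Id2 it was 5 and 5 (21.6%), and at Iw4 22 and 2 (11.5%). *Nkd1* and *Fzd2* were called basal at each of the 8 time points, and *Wnt6*, *Fzd7*, *Dkk3* and *Sostdc1* at 7. The *Nkd1* calls held without any single library, whereas that of *Fzd2* was lost without any one of 10 libraries at L10, 5 at P14.5, 5 at Id2 and 2 at P3.5 (adjusted p up to 0.19, without Id2 basal replicate 6), and that of *Dkk3* without any one of 3 at L10 and 1 at P14.5. The members *Lgr4*, *Rnf43*, *Sfrp1* and *Sfrp2* were called basal at some time point and luminal at another, *Lgr4* and *Rnf43* luminal at Id2 only. *Lrp5*, *Lrp6*, *Rspo3*, *Apc*, *Ctnnb1*, *Tcf7l2* and *Lef1* were called at none. The counts depended on single libraries where groups were small, with 7 members called at P14.5 without basal replicate 3, 14 at L3 without luminal replicate 6, 6 at L10 without basal replicate 6 and 17 at Id2 without basal replicate 2.

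The next question was which members change through the cycle. Across the 8 time points, 19 members varied in luminal cells (31.5% of all genes did) and 28 in basal cells (42.7%), by limma's F test at an FDR under 0.01 with condition means at least 2-fold apart. A total of 13 were called in both, 6 in luminal cells alone (*Wnt5a*, *Wnt7b*, *Fzd5*, *Lgr4*, *Sfrp1* and *Lef1*) and 15 in basal cells alone, while 10 were called in neither, among them *Ctnnb1*, *Apc*, *Lrp5*, *Lrp6*, *Fzd1* and *Fzd2*. A call in one cell type alone is not a tested difference. Without the Id2 libraries 17 members varied in luminal cells (26.2% of all genes did) and 19 in basal cells (33.3%), and without the Id2, L3 and L10 libraries 9 in luminal (12.3%) and 9 in basal cells (14.9%).

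Basal members described 3 courses. *Lgr5* stood at 113, 201 and 194 CPM at W10 and 209, 109 and 157 CPM at M4, was at 44.4, 122 and 52.5 CPM at P3.5 and 21.5 and 11.2 CPM at P14.5, and reached 4.01, 1.14 and 5.29 CPM at L3 and 14.8 and 3.23 CPM at L10. At Iw4 it was back at 70.9, 141 and 93.3 CPM, and at Id2 it was 0.468, 2.33 and 7.76 CPM. The lactation libraries lay below those of every other time point but P14.5 and Id2, which they overlapped. *Wif1* followed later, with 247, 135 and 232 CPM at W10, 462, 261 and 210 at M4, 278, 206 and 192 at P3.5 and 200 and 131 at P14.5. It was at 20.9, 27.2 and 8.35 CPM at L3, 5.33 and 20.2 at L10, and 269, 342 and 390 at Iw4, so the lactation libraries did not overlap those of pregnancy or the resting gland. *Lgr6* stayed higher, at 141, 170 and 60.8 CPM at L3 and 87 and 58.3 CPM at L10, against 403, 155 and 301 CPM at W10, 262, 385 and 441 CPM at M4 and 489, 431 and 350 CPM at P3.5. It was 174 and 192 CPM at P14.5 and 266, 155 and 399 CPM at Iw4, and 0.156, 5.23 and 0.485 CPM at Id2.

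*Tcf7*, *Wnt6* and *Wnt10a* had their highest basal values in pregnancy or lactation. *Tcf7* was at 246, 167 and 166 CPM at P3.5, above every other basal library, and at 84.9, 40.3 and 51.9 CPM at W10, 42.3, 91.2 and 46 CPM at M4, 41.3 and 64.5 CPM at P14.5 and 37.8, 27.7 and 70.1 CPM at Iw4. In lactation it was 21.4, 22.6 and 11.5 CPM at L3 and 12.3 and 8.74 CPM at L10, below each of these, and at Id2 0.156, 6.49 and 2.75 CPM. *Wnt6* was at 4.07, 2.46 and 5.62 CPM at W10, 4.98, 17.9 and 5.18 at M4, 21.4, 22.6 and 30.6 at P3.5, 16.5 and 5.1 at P14.5, 39.8, 28.3 and 9 at L3, 11.6 and 20.8 at L10 and 7.49, 2.55 and 14.1 at Iw4. The P3.5 libraries exceeded all never-pregnant ones, and those of lactation overlapped the latter through L3 replicate 6 and L10 replicate 5. *Wnt10a* peaked at P3.5 with 19.3, 40.5 and 35.1 CPM, overlapping W10 (22, 8.3 and 10.9) and M4 (13.2, 22.4 and 12.8), and had 17.8 and 4.94 CPM at P14.5, 18.2, 15.1 and 3.71 at L3, 12.9 and 5.79 at L10, 0, 1.74 and 0 at Id2 and 8.73, 8.47 and 23.9 at Iw4.

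*Fzd7*, *Nkd1* and *Sostdc1* kept high basal levels through lactation. *Fzd7* was at 689, 864 and 1336 CPM at W10, 767, 459 and 530 at M4, 419, 300 and 273 at P3.5, 300 and 286 at P14.5, 671, 627 and 389 at L3, 510 and 491 at L10 and 602, 939 and 574 at Iw4. Apart from P3.5 replicate 2, the pregnancy libraries were below all others outside Id2, where it was 16.6, 217 and 47.3 CPM. *Nkd1* was highest at L10 (152 and 202 CPM), above the L3 values of 54.5, 136 and 77.9 CPM, and lay at 74.7, 55.9 and 58 CPM at W10, 58.4, 48.4 and 46.6 at M4, 103, 88.6 and 77.9 at P3.5, 55.6 and 40.8 at P14.5, 6.25, 81.3 and 15.7 at Id2 and 37.8, 26.1 and 69 at Iw4. *Sostdc1* was at 183, 185 and 187 CPM at L3 and 154, 111 and 203 CPM at P3.5, and at 100, 74.4 and 96.3 CPM at W10, 48.7, 90.1 and 92.4 at M4, 86.1 and 69.8 at P14.5, 109 and 54.6 at L10, 0, 0.969 and 0.646 at Id2 and 37.8, 28.8 and 105 at Iw4. *Axin2* had its highest basal values at W10 (26, 18.8 and 33.1 CPM) and P3.5 (21.7, 24.8 and 21.4), with 19.5, 14.8 and 19.4 at M4, 11.8 and 8.89 at P14.5, 11.9, 7.49 and 10.1 at L3, 3.23 and 12.3 at L10, 1.09, 3.78 and 5.01 at Id2 and 13, 14.7 and 9.97 at Iw4. *Nkd2* was at 97.6, 82.4 and 67.7 CPM at P3.5, 81.8, 34.1 and 31.9 at W10, 43.3, 28.8 and 34.4 at M4, 26.2 and 23.7 at P14.5 and 18.7, 16.7 and 32.2 at Iw4, and at 4.65, 5.08 and 9.56 at L3 and 7.08 and 10.6 at L10, lower than in each of these libraries.

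**Figure D3:**
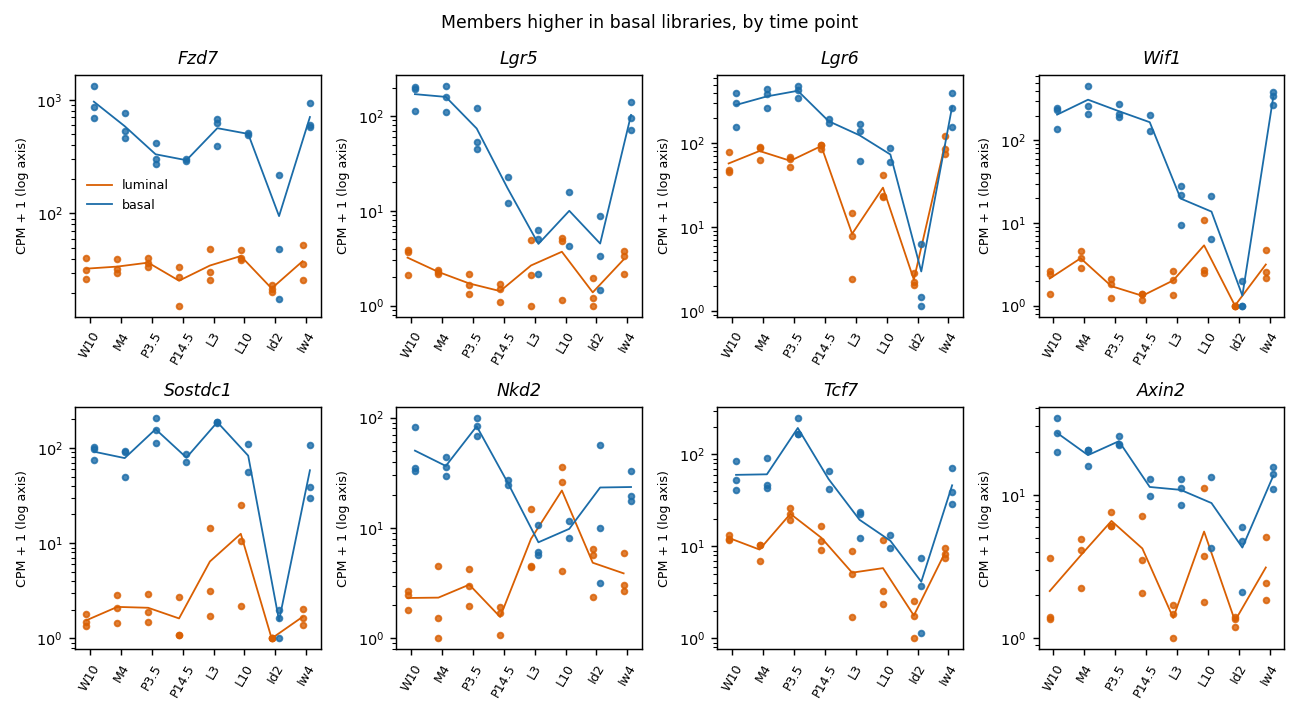
Level (CPM + 1, log axis) of selected members in each library by time point, basal and luminal, with lines through the condition means. In basal cells *Lgr5* and *Wif1* are lowest in lactation and Id2, *Tcf7* is highest at P3.5 (166 to 246 CPM), and each of the 3 is low in the libraries labelled Id2 basal that had nearly lost *Krt5*.

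In luminal cells the ligand *Rspo1* and the receptor *Lgr4* moved at different times. *Rspo1* was at 71.5, 20 and 26.6 CPM at W10, 40.4, 150 and 122 at M4, 186, 110 and 176 at P3.5 and 814, 549 and 483 at P14.5, the highest of any time point and without overlap. It was then at 7.4, 0 and 1.75 CPM at L3, 266, 21 and 163 CPM at L10, 0.79, 1.5 and 2.03 CPM at Id2 and 86.8, 15.2 and 186 CPM at Iw4. L3 and Id2 were thus low, and L10 replicate 5 stood far below its 2 companions. In basal cells *Rspo1* reached 46.5 and 229 CPM at P14.5, and the library with 229 CPM also held the casein gene *Csn2* at 24300 CPM against 2584 CPM in the other one. *Lgr4*, which was outside the rule for full values and was chosen after its values were seen, as were *Wnt5a*, *Wnt7b*, *Sfrp1*, *Sfrp2*, *Dkk3* and *Fzd5*, lay at 23.7, 26.1 and 37.2 CPM at W10, 55.5, 44 and 58.8 at M4 and 33.9, 30.5 and 38.5 at P3.5. It was 147, 161 and 150 CPM at P14.5, 332, 178 and 223 at L3, 98.7, 342 and 303 at L10, 665, 832 and 642 at Id2 and 38.4, 56.7 and 54.9 at Iw4, so that each library from P14.5 to Id2 was above each of the others. Basal *Lgr4* outside Id2 lay between 109 and 305 CPM throughout.

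*Sfrp1*, which binds Wnt proteins and Frizzled, had a luminal course like that of *Lgr4*. It was at 8.47, 10.5 and 13.4 CPM at W10, 22.5, 17.9 and 32.1 at M4, 17.9, 14.2 and 23.2 at P3.5, 47, 57.4 and 33 at P14.5, 440, 269 and 402 at L3, 111, 249 and 162 at L10, 299, 326 and 455 at Id2 and 20.7, 30.2 and 24.3 at Iw4. Lactation and Id2 libraries were above all others. *Wnt5a*, a ligand known for β-catenin-independent signaling, ran the other way, with 62.8, 138 and 161 CPM at W10, 138, 36.8 and 56.1 at M4, 25.8, 24.1 and 21 at P3.5 and 6.1, 6.78 and 2.62 at P14.5. It was at 13.9, 42 and 14 CPM at L3, 19.2, 15 and 25.4 at L10, 22.5, 5.8 and 23 at Id2 and 59.5, 161 and 41.2 at Iw4. *Wnt7b* was lowest at P14.5 (6.57, 3.64 and 3.37 CPM) and L3 (2.34, 5.77 and 2.1 CPM), without overlap with W10 (33.5, 45.1 and 32.5 CPM) or with the 20.8, 18 and 12.8 CPM of L10. *Lgr6* fell within luminal cells as well, from 44.2, 47.1 and 78.4 CPM at W10 and 95, 95.1 and 85.8 CPM at P14.5 to 6.85, 13.7 and 1.4 CPM at L3 and 1.19, 1.87 and 1.02 CPM at Id2, with 41, 22 and 22.8 CPM at L10.

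**Figure D4:**
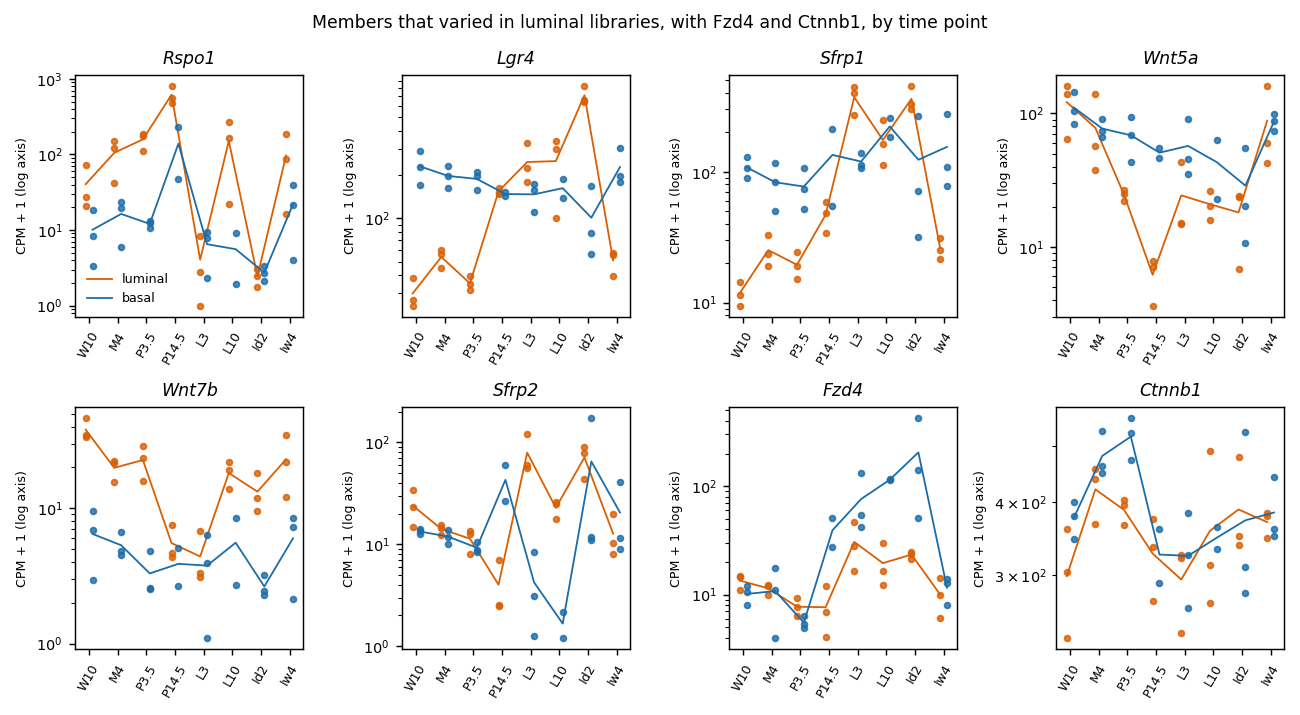
Level (CPM + 1, log axis) of members that varied in luminal libraries, with *Fzd4* and *Ctnnb1*, in each library by time point, with lines through the condition means. Luminal *Rspo1* is highest at P14.5 (483 to 814 CPM) and near its lowest at L3 and Id2, luminal *Lgr4* and *Sfrp1* are raised at L3, L10 and Id2, and *Ctnnb1* stays between 232 and 557 CPM in both cell types.

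The remaining members chosen for full values varied less or at lower levels. *Ctnnb1* in luminal cells was at 232, 358 and 302 CPM at W10, 456, 366 and 438 at M4, 402, 365 and 394 at P3.5, 269, 373 and 334 at P14.5, 323, 320 and 237 at L3, 267, 490 and 311 at L10, 349, 477 and 337 at Id2 and 346, 382 and 378 at Iw4. In basal cells it was at 400, 345 and 377 CPM at W10, 530, 461 and 448 at M4, 525, 472 and 557 at P3.5, 359 and 289 at P14.5, 382, 323 and 262 at L3, 362 and 331 at L10, 528, 308 and 278 at Id2 and 349, 359 and 441 at Iw4. No time point stood clear of the others in luminal cells, and *Ctnnb1* was not called over time in either cell type. Luminal *Tcf7l1* was at 29.2, 14.6 and 30.1 CPM at W10, 15.4, 34.8 and 38.8 at M4, 37.5, 20.6 and 42.6 at P3.5, 92.8, 81.4 and 66 at P14.5, 65.7, 53.9 and 35.8 at L3, 82, 64.3 and 88.2 at L10, 64.6, 64.6 and 49.4 at Id2 and 21, 24.1 and 27.6 at Iw4, with P14.5 and L10 above W10, M4, P3.5 and Iw4 throughout. In basal cells it was at 71.4, 58.6 and 69.2 CPM at P3.5, 97.7 and 98.3 at P14.5 and 59.2, 59 and 87.5 at Iw4.

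Luminal *Tcf7* was at 9.48, 9.32 and 5.96 CPM at M4, 18.5, 25.1 and 21.3 at P3.5, 15.6, 8.26 and 10.5 at P14.5, 3.97, 7.89 and 0.701 at L3, 2.26, 10.8 and 1.38 at L10 and 8.5, 6.49 and 7.28 at Iw4, highest at P3.5 as in basal cells. Luminal *Axin2* was at 2.62, 0.42 and 0.373 CPM at W10, 1.24, 3.94 and 3.16 at M4, 5.04, 5.09 and 6.61 at P3.5, 1.08, 6.09 and 2.53 at P14.5, 0, 0.471 and 0.701 at L3, 0.798, 2.75 and 10.1 at L10, 0.198, 0.374 and 0.407 at Id2 and 1.42, 0.853 and 4.09 at Iw4, and its L3 and Id2 libraries were all under 1 CPM. *Lef1*, the TCF/LEF member best known from developing ectodermal organs, was at 0.37, 0.205 and 0.511 CPM at W10, 0.102, 0.276 and 0.61 at M4, 0.17, 0.149 and 0.0722 at P3.5, 1.86 and 0 at P14.5, 0.561, 0 and 0.371 at L3, 0.699 and 0.095 at L10, 1.72, 0.388 and 0.323 at Id2 and 0, 0 and 0.49 at Iw4 in basal cells. Outside L3 and L10 its luminal libraries did not exceed 0.65 CPM. Neither population thus had a library above 3.06 CPM at any time point. *Fzd2* in basal cells was at 16.6, 24.1 and 38.3 CPM at W10, 21.9, 20.4 and 26.4 at M4, 17.6, 12.7 and 13.4 at P3.5, 16.1 and 8.4 at P14.5, 39.9, 53.9 and 19.4 at L3, 32.5 and 30.4 at L10, 0.937, 23.3 and 57.9 at Id2 and 21, 32 and 20.3 at Iw4, a wide spread at Id2. Luminal *Fzd4* was at 10.1, 13.5 and 13.9 CPM at W10, 10.9, 11.4 and 9 at M4, 6.67, 8.22 and 5.34 at P3.5, 11, 3.05 and 5.91 at P14.5, 15.7, 27.3 and 45.9 at L3, 11.2, 28.9 and 15.5 at L10, 22.9, 23.8 and 20.5 at Id2 and 8.89, 13.1 and 5.11 at Iw4. Its highest library, L3 replicate 6, stayed below the lowest L10 basal library but lay above L3 basal replicate 4, at 41.1 CPM.

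Time points that shared an amplification batch were compared first. In luminal cells 2 members rose from P3.5 to P14.5 (1.52% of all genes were called), *Lgr4* by 2.13 ± 0.33 (adjusted p = 1.2e-04) and *Fzd5* by 1.45 ± 0.34 (adjusted p = 0.0083, 0.011 with the sort as a block). *Fzd5* had 57.2, 62.1 and 44 CPM at P3.5 and 155, 124 and 171 CPM at P14.5 without overlap, but its call was lost without any one of these 6 libraries (adjusted p up to 0.06), and also without W10 luminal replicate 5 or Iw4 basal replicate 5. In basal cells *Fzd4*, a receptor also used by the Norrin ligand in endothelium, rose by 2.77 ± 0.58 (adjusted p = 0.0021) and *Znrf3* fell by 1.13 ± 0.29 on the log2 scale (adjusted p = 0.0098), against 3.64% of all genes. *Fzd4* was at 3.9, 4.32 and 5.34 CPM at P3.5 and 50 and 26.5 CPM at P14.5, where the summed endothelial markers were 823 and 388 CPM against 15.5 to 67.3 CPM, and its adjusted p was 0.072 without P14.5 replicate 3 and 0.011 without P3.5 replicate 2. The call of *Znrf3* was lost without any one of 34 of the 46 libraries. The P14.5 basal libraries also had fibroblast sums of 12606 and 6405 CPM against 356 to 820 CPM at P3.5. Their pericyte sums were 1444 and 1296 CPM against 88 to 155 CPM. In luminal libraries the immune sum was 96.2 to 270 CPM at P14.5 against 32.2 to 38.7 CPM at P3.5. The luminal endothelial sum was 24.3 to 334 CPM against 11.3 to 19.9 CPM. The part of these cell types in the changes was not tested.

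From L3 to L10, *Rspo1* rose by 5.12 ± 0.89 in luminal cells (adjusted p = 0.0011, 0.381% of all genes were called). The call was lost without L10 replicate 4 (adjusted p = 0.014) or replicate 6 (0.011), and edgeR on recovered reads called 0 members. In basal cells limma called 0 members between L3 and L10 (1.14% of all genes), with 3 at an unadjusted p under 0.05 and 0 by edgeR. From M4 to Iw4, the comparison of parous with never-pregnant glands, limma and edgeR called 0 members in luminal cells (0% of all genes) with 0 at an unadjusted p under 0.05, and 0 members in basal cells (0.00586% of all genes) with 2 at an unadjusted p under 0.05. The basal values of *Lgr5*, *Wif1*, *Fzd7* and *Tcf7* at Iw4 overlapped those at M4.

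At Id2 against W10, luminal cells showed 7 called members (10.4% of all genes). *Sfrp1* rose by 4.93 ± 0.49, *Lgr4* by 4.59 ± 0.33 and *Tcf7l1* by 1.29 ± 0.31, while *Lgr6* fell by 4.58 ± 0.48, *Rspo1* by 3.87 ± 0.89, *Tcf7* by 2.9 ± 0.54 and *Wnt5a* by 2.85 ± 0.55 on the log2 scale (adjusted p between 2.6e-12 and 0.0021). Luminal *Tcf7* was at 11.1, 12.4 and 10.7 CPM at W10 and at 1.58, 0.749 and 0 CPM at Id2. The *Tcf7l1* call was lost without W10 replicate 5 or Id2 replicate 2 or 4, and that of *Rspo1* without W10 replicate 3 or Id2 replicate 2. The luminal marker sum was 177574 to 274753 CPM in the Id2 luminal libraries, of which *Csn2* made up 150308 to 225473 CPM. Some other luminal markers were lower there than at W10 without overlap. *Krt19* was at 672 to 983 CPM against 1752 to 2245 CPM and *Krt8* at 243 to 478 CPM against 559 to 809 CPM. *Foxa1* was at 27.9 to 52.5 CPM against 134 to 160 CPM and *Kit* at 71.6 to 112 CPM against 259 to 727 CPM. *Esr1* was at 60.1 to 80 CPM against 115 to 159 CPM. *Krt18* (580 to 1152 against 1133 to 1813 CPM), *Prlr* (802 to 1659 against 1572 to 3455 CPM) and *Cldn3* (72.2 to 173 against 71.7 to 149 CPM) overlapped W10. *Elf5* was higher, at 473 to 619 CPM against 139 to 297 CPM, as was *Wap*, at 14547 to 43978 CPM against 1.19 to 15.1 CPM. The part of this shift in the member changes was not tested. Id2 luminal replicate 6 also carried fibroblast markers at 5504 CPM. In the Id2 luminal libraries the endothelial sum was 112 to 339 CPM against 27.3 to 60.5 CPM at W10. The immune sum was 164 to 638 CPM against 22 to 35.2 CPM, and the adipocyte sum 48.2 to 124 CPM against 4.98 to 12.5 CPM. The part of these cell types in the luminal changes was not tested. In the libraries labelled Id2 basal, 20 members were lower and 1 was higher than at W10 (17.4% of all genes were called in either direction), and the median difference was -1.16 for the members and -0.02 for all genes. The widest were *Wif1* (-7.31 ± 0.46), *Lgr6* (-6.92 ± 0.48), *Sostdc1* (-5.94 ± 0.59) and *Lgr5* (-5.56 ± 0.58), and the member that was higher was *Fzd4* (3.86 ± 0.52), at 421, 140 and 50.4 CPM with the highest value in the library of the highest endothelial sum. Since these libraries held *Krt5* at no more than 156 CPM, a change within basal cells and a change in the cells sorted cannot be told apart.

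In early pregnancy, limma called 0 luminal members at P3.5 against the mean of W10 and M4 (0.369% of all genes), with 6 at an unadjusted p under 0.05 and 0 by edgeR. In basal cells 1 member was called (4.09% of all genes). *Wnt6* rose by 1.96 ± 0.38 (adjusted p = 6.7e-04), a call lost without P3.5 replicate 6 (adjusted p = 0.013) and not made by edgeR. *Tcf7* differed by 1.73 ± 0.46 (adjusted p = 0.011), just past the FDR limit although its P3.5 libraries were above every other basal library. The basal change less the luminal change was called for 0 members (0.041% of all genes), with 3 at an unadjusted p under 0.05 and 0 by edgeR. P3.5 and the never-pregnant mice differ in amplification batch and lane, which cannot be told apart from the time point. Levels of *Ctnnb1* at P3.5 were 525, 472 and 557 CPM in basal cells and 402, 365 and 394 CPM in luminal cells, and in neither was the change from never-pregnant mice called (0.29 ± 0.19 and 0.14 ± 0.19). *Lef1* was at 0.17, 0.149 and 0.0722 CPM in basal cells and 0.65, 0.0697 and 0 CPM in luminal cells at P3.5.

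Lactation, as the mean of L3 and L10, was compared with the mean of W10 and M4, again across batches. In luminal cells 7 members rose and 5 fell (13.2% of all genes were called). The rises were led by *Sfrp1* (3.86 ± 0.35, adjusted p = 1.8e-10) and *Lgr4* (2.52 ± 0.24, adjusted p = 3.5e-10), followed by *Nkd2* (2.29), *Dkk3* (1.95), *Sostdc1* (1.74) and *Tcf7l1* (1.26). The rises of *Nkd2*, *Dkk3* and *Sostdc1* in luminal cells were highest in L10 replicates 5 and 6 and in L3 replicate 5. *Sostdc1*, for example, was at 23.9, 9.5 and 13.4 CPM in these and at 1.2, 2.16 and 0.701 CPM in the other 3. In the same 3 libraries the basal marker sum was 2702, 1052 and 1483 CPM against 408 to 862 CPM in the other 3 and 141 to 267 CPM in never-pregnant luminal libraries. The basal markers did not rise alike. *Krt5* was at 1143, 310 and 507 CPM in the 3 libraries, against 1403 to 3849 CPM in L3 and L10 basal libraries. *Krt14* was at 745, 331 and 369 CPM against 617 to 1132 CPM, which overlapped. *Acta2* was at 152, 97.3 and 88.2 CPM against 12014 to 29688 CPM. The fibroblast sum was 702 and 954 CPM in L10 replicates 5 and 6 and 134 CPM in L3 replicate 5, against 54.4 to 352 CPM in the other 3 and 168 to 456 CPM in never-pregnant luminal libraries. The endothelial sum was 467, 96.9 and 549 CPM in the same order, against 56.9 to 205 CPM and 16.9 to 60.5 CPM, and the immune sum 529, 397 and 210 CPM, against 83.3 to 226 CPM and 19.8 to 39.2 CPM, and the part of RNA from these cell types in the rises was not tested. *Lef1* was listed at 0 in the 6 never-pregnant luminal libraries and at 0.721, 3.06, 1.4, 1.06, 1.09 and 0.0863 CPM in lactation (adjusted p = 3.5e-04), a call that fell below 2-fold without L3 replicate 5 or L10 replicate 4 or 5, and no fold is given for it. The members that fell were *Lgr6* (-2.29 ± 0.34), *Wnt5a* (-2.06 ± 0.39), *Wnt7b* (-1.66 ± 0.37), *Tcf7* (-1.28 ± 0.38) and *Wnt2b* (-1.18 ± 0.31). The *Wnt2b* call was lost without W10 replicate 5 or L10 replicate 4 or 5, and that of *Tcf7* without any one of 9 luminal libraries (W10 replicates 3, 5 and 6, M4 replicates 1 and 2, L3 replicates 4 and 6, and L10 replicates 4 and 6).

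In basal cells 11 members fell and 5 rose in lactation (16.5% of all genes were called), with a median difference of -0.5 for the members and -0.05 for all genes. *Lgr5* fell by 4.79 ± 0.44 on the log2 scale (adjusted p = 9.9e-11) and *Wif1* by 4.07 ± 0.35 (adjusted p = 2.3e-11). *Sfrp2* (-2.48 ± 0.5), *Nkd2* (-2.29 ± 0.52), *Tcf7* (-1.97 ± 0.4), *Lgr6* (-1.76 ± 0.36), *Amer2* (-1.71 ± 0.17), *Axin2* (-1.31 ± 0.38), *Fzd3* (-1.23 ± 0.27), *Fzd6* (-1.21 ± 0.36) and *Kremen1* (-1.17 ± 0.24) also fell. *Nkd1* differed by 1.09 ± 0.37 without being called (adjusted p = 0.02). *Fzd4* rose by 3.2 ± 0.39 (adjusted p = 4.3e-08), at 41.1, 53.2 and 131 CPM at L3 and 115 and 112 CPM at L10 against 2.95 to 16.5 CPM in never-pregnant basal libraries. The endothelial sum in the same lactation libraries was 841 to 1526 CPM and the pericyte sum 2031 to 17387 CPM, against 45.7 to 202 CPM and 164 to 255 CPM in the never-pregnant ones, and their part in the rise was not tested. The 4 measured adipocyte markers summed to 499 to 981 CPM in these libraries against 12.9 to 69.3 CPM, led by *Fabp4*, with *Lep* at 138 to 278 CPM against 0.305 to 2.87 CPM, and the fibroblast sum was 949 to 6992 CPM against 259 to 747 CPM. *Dkk2* (2.3 ± 0.52), *Wnt6* (1.56 ± 0.33), *Tcf7l1* (1.2 ± 0.23) and *Fzd8* (1.08 ± 0.31) rose as well, and the part of these other cell types was not tested for them either. *Tcf7l1* was at 199, 226 and 204 CPM at L3 and 190 and 192 CPM at L10, above the 66.3 to 115 CPM of every never-pregnant basal library. Leaving out single basal libraries ended the calls of *Axin2* (W10 replicates 3 and 6, M4 replicates 1 and 6, L3 replicates 5 and 6, L10 replicate 5), *Fzd6* (W10 replicates 3, 5 and 6, M4 replicates 2 and 6, L3 replicate 6, L10 replicates 5 and 6), *Fzd8* (W10 replicates 3, 5 and 6, M4 replicates 1 and 6, L3 replicates 5 and 6, L10 replicate 6), *Kremen1* (W10 replicate 3, L10 replicate 6) and *Dkk2* (L10 replicate 5), with adjusted p-values up to 0.14. With L3 alone in place of both lactation time points, 10 basal members were called (12% of all genes were).

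The change in lactation differed between the cell types for 10 members (10.3% of all genes), a test in which lane and batch are shared. The median of the basal change less the luminal change was -0.6 for the members and 0 for all genes. For *Nkd2* the 2 changes were called in opposite directions, with a fall of 2.29 in basal and a rise of 2.29 in luminal cells and a difference of -4.58 ± 0.71 (adjusted p = 1.3e-05). *Lgr5* (-4.74 ± 0.6) and *Wif1* (-4.13 ± 0.48) fell in basal cells, and their luminal changes were -0.05 and 0.06. In never-pregnant luminal libraries *Lgr5* was at 1.11 to 2.86 CPM and *Wif1* at 0.373 to 3.62 CPM, so a luminal fall of the basal size could not have been measured on this scale and these differences largely restate the basal fall. *Sfrp2* differed by -3.67 ± 0.68, from a called fall in basal cells and a luminal change of 1.2 that was not called (adjusted p = 0.047). It was at 55.2, 59.5 and 120 CPM at L3 in luminal cells and at 2.09, 0.254 and 7.33 CPM in basal cells. *Sfrp1* (-3.05 ± 0.51), *Lgr4* (-2.98 ± 0.34) and *Dkk3* (-2.69 ± 0.54) rose in luminal cells, with basal changes of 0.81, -0.46 and -0.73 that were not called. *Fzd4* (2.33 ± 0.54) was the member with the larger rise in basal cells. *Amer2* differed by -1.49 ± 0.24, but it was at 0 to 0.806 CPM in never-pregnant luminal libraries and at 0 in all lactating ones, so its luminal level had no room to fall and the call rests on the basal fall. *Fzd5* differed by -1.24 ± 0.35, a call lost without any one of 24 libraries (adjusted p up to 0.065, without L10 basal replicate 6). With L3 alone (6.44% of all genes called), 7 of the 10 were called, without *Fzd4*, *Fzd5* and *Dkk3*.

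**Figure D5:**
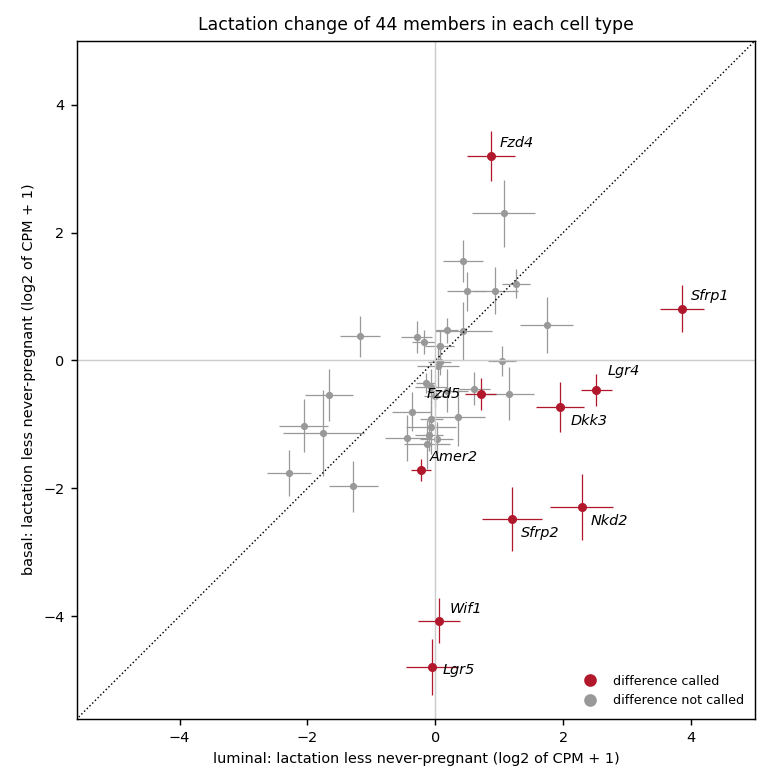
Change from never-pregnant glands to lactation (log2 of CPM + 1) of the 44 members in luminal (x axis) and basal cells (y axis), with standard errors and a dotted line of equal change. Red points are the 10 members whose change differed between cell types, with *Sfrp1*, *Lgr4* and *Dkk3* to the right, *Lgr5* and *Wif1* at the bottom and *Fzd4* at the top.

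Other genes of the pathway were taken from lists of related components. Their counts are to be read against the 13.6% of all genes called higher in basal and the 7.35% called higher in luminal cells. Over all time points, basal cells were higher in 6 of 9 other receptors and co-receptors, led by the glypicans *Gpc6* (5.34) and *Gpc3* (3.45) and by the Wnt5a receptor *Ror2* (2.09), and none of the 9 was called luminal. Of 22 further cytoplasmic components 3 were basal, a share no larger than that of all genes, including *Dact3* (4.20) and *Dact1* (3.14), which encode dishevelled-binding proteins, and 3 were luminal, including *Ccdc88c* (-2.01). Of 17 nuclear co-factors 4 were basal and 1 luminal, with *Pygo1*, a β-catenin co-activator, at 3.31, and of 11 planar polarity components 4 were basal and 1 luminal, with *Daam2* at 2.72 and *Celsr2* at -1.24. Of 8 other secreted modulators 2 were basal, *Trabd2b* (3.79), which encodes a Wnt-inactivating protease, and *Apcdd1* (2.13), a membrane inhibitor, and *Dkkl1* was luminal (-3.42). Among 4 other genes for ligands and secretion, *Wnt4*, a ligand that acts downstream of progesterone in this tissue, was luminal (-1.97, adjusted p = 2.2e-08). Of 10 known β-catenin targets 5 were basal and 2 luminal, with *Jag1* at 2.97, *Prox1* at -2.70 and *Edn1* at -1.79. Without the Id2 libraries *Ror1*, *Tle6* and *Celsr2* (-0.90) were no longer called and *Dvl2* and *Vangl1* were gained on the basal side, while the other genes named here stayed called, with *Gpc6* at 5.55, *Gpc3* at 3.46, *Ror2* at 2.06, *Dact3* at 4.41 and *Wnt4* at -2.02.

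In lactation, 2 of the 10 known targets were called in luminal cells, against 13.2% of all genes. *Myc* rose by 1.34 (adjusted p = 6.5e-06) and *Ccnd1*, which encodes cyclin D1, fell by 1.42 on the log2 scale (adjusted p = 0.0025), and their basal less luminal differences were -1.57 and 2.12. *Ccnd1* was at 31.9 to 134 CPM at L3, under every never-pregnant luminal library (302 to 543 CPM), whereas the L10 libraries, at 266 to 449 CPM, overlapped them, and the call was lost without L3 luminal replicate 6 (-1.13, adjusted p = 0.016), as was that of its difference between cell types without this library, W10 basal replicate 6 or L10 basal replicate 6 (adjusted p up to 0.012). In basal cells 3 of the 10 targets were called, against 16.5% of all genes, *Twist1* (1.83) and *Jag1* (1.02) higher and *Ascl2* (-1.06) lower. None of the 3 was called with L3 alone, and leaving out a single basal library ended the call of *Jag1* (any one of 9, adjusted p up to 0.059, without L10 replicate 6) and of *Ascl2* (any one of 6, adjusted p up to 0.017). *Daam2* rose in both cell types, by 1.79 in luminal and 3.79 in basal cells (adjusted p = 5.6e-05 and 1.1e-10), while no other of the 11 planar polarity components was called in either. Of the 22 further cytoplasmic components 5 were called in basal cells, 4 higher and 1 lower, among them *Dact3* (2.01), *Frat2* (1.31) and *Dact2*, which fell by 1.39. The *Dact2* call was lost with L3 alone (-0.74, adjusted p = 0.26) and without any one of 7 basal libraries (adjusted p up to 0.1). *Frat2* was at 60.5 and 63.5 CPM at L10 and at 11.1 to 28 CPM at L3 against 9.45 to 17.7 CPM in never-pregnant basal libraries, and was not called with L3 alone (0.49, adjusted p = 0.29). Of the 8 other secreted modulators 3 were called higher, *Apcdd1*, *Trabd2b* (1.25) and *Sfrp5* (1.11), the last 2 losing the call without any one of 4 and 7 basal libraries. *Apcdd1* was called at 1.84, a value that rests on L10 replicate 6 at 201 CPM. The other L10 library was at 27.4 CPM, L3 libraries were at 13.2 to 28.1 CPM and never-pregnant ones at 6.05 to 14.5 CPM, and without L10 replicate 6 the difference was 1.14 and not called (adjusted p = 0.07). The same lactating basal libraries had the pericyte, endothelial, fibroblast and adipocyte sums given above, and their part in these rises was not tested.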

How the data were processed

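RNA of sorted luminal and basal cells was amplified (Ovation RNA-Seq V2) and sequenced, and per the labels the authors aligned reads with GSNAP to mm9, counted them per Ensembl gene with HTSeq and normalized with edgeR. The strand setting of the counting is not given in the sources used here, and exons of *Fzd5*, *Sfrp2*, *Ctnnb1*, *Lef1* and *Rspo3* overlap opposite-strand genes by 13.1 to 17.8%, so their reads are uncertain. The deposited signal is a count divided by effective library size, in CPM, after the authors removed low genes, and 100% of values up to 100 reads came out within 0.05 of whole reads. Of 47 described samples 46 have values here, and the basal library of P14.5 replicate 2 is not analysed here. Of the gene identifiers, 16897 were named from GENCODE vM21 and 181 were not.

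A limma 3.58.1 model (R 4.3.3) of log2(CPM + 1) with 16 condition means and a mean-variance trend was fitted to all genes, tested on simulated data, and adjusted by Benjamini-Hochberg over 17078 genes. The pseudocount of 1 understates changes of low genes. The floor of 3 reads covers counting error only, as amplified reads without molecular identifiers include copies. Levels per kilobase used exon-union lengths. edgeR 4.0.16 (quasi-likelihood test on recovered reads) used 45 libraries, without W10 luminal replicate 3. Luminal and basal libraries pair by sort, since the labels give both the same sort date (2 dates are shared by L3 and L10 sorts, which were kept apart, 22 pairs, median correlation of deviations 0.25, 21 positive, 16 over 0.1), and the sort was a block in an alternative fit (consensus correlation 0.179). Library values were given for the members with the largest cell-type differences and ranges over time in each class, plus *Lef1*, *Tcf7*, *Ctnnb1* and *Axin2*. Members and lists were chosen with earlier results of these data known. Other alternatives were a pseudocount of 0.1, median-ratio rescaling, a mean of at least 5 CPM, an FDR of 0.05, no variance trend, leaving out each library or the Id2 libraries, amplification batch as a term for M4 and Iw4, and, added after seeing the data, leaving out Id2 for the other pathway genes, leaving out Id2, L3 and L10 and taking L3 alone for lactation.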

Additional observations from a re-analysis of the deposited data

Results flagged for a closer look

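The change from never-pregnant glands to lactation differed between the cell types for 10 members when the basal change less the luminal change was tested in the limma model, on the log2(CPM + 1) scale. The difference was 2.33 for *Fzd4*, -1.24 for *Fzd5*, -2.98 for *Lgr4*, -4.74 for *Lgr5*, -3.05 for *Sfrp1*, -3.67 for *Sfrp2*, -2.69 for *Dkk3*, -4.13 for *Wif1*, -1.49 for *Amer2* and -4.58 for *Nkd2*. *Amer2*, an adaptor of the destruction complex, was low throughout, with basal means of 0.15 CPM in lactation and 2.99 CPM in never-pregnant glands and luminal means of 0 and 0.193 CPM.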

How the results depend on the processing

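The counts of called members were within 1.5 times their value in 166 of 186 combinations of result and alternative other than leaving out a library, and in 1092 of 1150 with a library left out. No single member over all time points changed direction. From P3.5 to P14.5 in luminal cells, 1 member was called with rescaling, no variance trend or edgeR and 5 at an FDR of 0.05, against 2. In basal cells for the same pair, 1 was called with a pseudocount of 0.1, rescaling, no trend or edgeR and 6 at an FDR of 0.05, against 2. From L3 to L10 in luminal cells, 3 were called at an FDR of 0.05 and 0 by edgeR, against 1. At P3.5 against never-pregnant glands, 1 luminal member was called at an FDR of 0.05 against 0, and 0 basal members with a pseudocount of 0.1 or edgeR, 2 with a mean of at least 5 CPM and 3 at an FDR of 0.05, against 1. In lactation, L3 alone gave 10 basal members against 16, and the difference between cell types held 16 members at an FDR of 0.05 against 10. Without Id2, L3 and L10, 9 members varied over time in luminal and 9 in basal cells, against 19 and 28. The cause of these shifts was not tested, beyond the looser limit and the fewer libraries.

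With single libraries left out, basal against luminal gave 7 to 21 members at P14.5, 14 to 23 at L3, 6 to 16 at L10 and 8 to 17 at Id2. P3.5 to P14.5 gave 1 to 3 in luminal and 0 to 2 in basal cells, L3 to L10 gave 0 to 2 in luminal cells, and P3.5 against never-pregnant basal cells gave 0 to 3. With the sort as a replicate block, 23 of 1100 calls changed, 21 of them gained, which gave 14 members in place of 10 for the lactation difference between cell types (*Wnt2b*, *Fzd3*, *Kremen1* and *Lef1* were gained) and 13 in place of 10 for basal against luminal at Id2. The calls lost were *Fzd5* from P3.5 to P14.5 in luminal cells and *Axin1* at L10. With amplification batch as a term, Iw4 against M4 gave 0 members in each cell type by limma, as without it. edgeR made 268 of the 310 calls of limma, each in the same direction. Depth limits *Lef1*, *Rspo3*, luminal *Wnt6* and *Amer2* in luminal and in L3, L10 and Id2 basal libraries, which lay near the 3-read floor.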
